A study of Mus musculus with 1024 samples.

Results

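Semaphorins, plexins, neuropilins, Slits, Robos, netrins and Unc5 receptors were described in single cells of the mouse aorta. The 45 genes were taken by symbol from the 24422 genes of the counts table, as every Sema gene named by a digit and a letter, every plexin (Plxn), Nrp1 and Nrp2, every Robo, Slit1 to Slit3, Unc5a to Unc5d, and Ntn1, Ntn3 and Ntn4. Of these 45 genes, 43 had a count in at least 1 of the 784 cells kept, and Sema4f and Slit1 had none.

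The study asked what the loss of AmotL2, a scaffold protein of endothelial junctions, did to aortic endothelial cells (ECs). All cells came from the aortas of mice aged 3 months, and every well carried the same strain label, Amotl2flow/flow / Cdh5-RREert /ROSA26-EYFP, with a genotype label of WT or KO. Per the study's methods, a loxP-flanked Amotl2 was deleted by a tamoxifen-activated Cre driven by the endothelial Cdh5 promoter, and ROSA26-EYFP reported recombination. The lumen side was digested, Cd45+ cells were depleted, and cells were sorted as Cd31+Cd45- (labelled Endothelial) or Cd31-Cd45- (labelled DoubleNegative). Full-length cDNA was sequenced with Smart-seq2, which reads cDNA copies without tagging the original molecules. The exact intervals given here are on shares of cells pooled over genotypes and preparations. They take each cell as independent and leave out the spread between preparations. The genotype labels carry a sort number, 1 or 2, called the preparation here, and name no mouse. Cells were therefore summed by genotype, gate and preparation into 8 sums. P-values for genotype, and for its difference between gates, measure the spread between preparations. The gate test pooled WT and KO sums, so its spread also holds genotype differences. The preparation test, with genotype in the model, measures how far the preparation difference varied between genotypes. In preparation 1 WT and KO cells were on separate plates, where plate and genotype cannot be told apart, and in preparation 2 they shared a plate.

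The Cd31+ sums held 235 and 50 WT cells and 302 and 89 KO cells in preparations 1 and 2, and the Cd31- sums held 42 and 12 WT cells and 40 and 14 KO cells. Total counts ran from 8470943 to 94881185 in the Cd31+ sums and from 926398 to 9435015 in the Cd31- sums, so the Cd31- values of preparation 2 carry the largest counting error. Levels are given as CPM, the counts of a gene scaled to a common library size, after TMM normalization of the sums. Amotl2 itself, counted over the whole gene and not over the deleted exon, was at 58.2 and 88.6 CPM in WT and 48.0 and 46.1 CPM in KO Cd31+ cells. EYFP was at 2.31 and 0.333 CPM in WT and at 105 and 86.2 CPM in KO Cd31+ cells, and at 0 in all Cd31- sums. The 9 endothelial markers summed to between 13683 and 16514 CPM in the Cd31+ sums and to between 26.8 and 1269 CPM in the Cd31- sums, the highest of which came from WT preparation 2, which held 1 endothelial-like cell. The 6 smooth muscle markers summed to between 21216 and 54300.5 CPM in the Cd31- sums and to between 693 and 1524 CPM in the Cd31+ sums, and the 6 fibroblast markers to between 2917 and 28991 CPM and between 102 and 314 CPM. Among the 5 leukocyte markers the Cd31- sums held only Cd68, at up to 1.41 CPM.

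These genes encode guidance cues and their receptors, first described in growing axons and later in vessels. Semaphorins bind plexins, most class 3 semaphorins through a neuropilin, and plexins act on the cytoskeleton and integrins through small GTPases. Slits bind Robo receptors, and netrins bind DCC, neogenin and Unc5 receptors. In vessels the same receptors steer sprouts, and neuropilin-1 also serves as a co-receptor for VEGF.

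The upstream sequences of 3 genes that were higher in Cd31+ cells and of 2 that were higher in Cd31- cells are shown as examples of both directions. They were picked among the called members because their windows overlapped few annotated exon bases. Each run is the 250 bases before the RefSeq start (GRCm38.p6), 5′ to 3′ on the gene's strand, and capitals mark AGGAAG on either strand, a core letter string of ETS factors, a family that includes the endothelial factor Erg. Nrp1 lies at chr8:128358823-128359072 on the plus strand, Plxnd1 at chr6:115995006-115995255 on the minus strand, Sema3g at chr14:31217623-31217872 on the plus strand, Sema3d at chr5:12382916-12383165 on the plus strand and Sema5a at chr15:32244563-32244812 on the plus strand.
Nrp1: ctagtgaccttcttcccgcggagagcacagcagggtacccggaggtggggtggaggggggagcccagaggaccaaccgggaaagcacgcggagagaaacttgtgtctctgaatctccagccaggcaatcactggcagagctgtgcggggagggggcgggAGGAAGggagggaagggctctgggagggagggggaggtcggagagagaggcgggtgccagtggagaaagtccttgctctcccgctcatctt
Plxnd1: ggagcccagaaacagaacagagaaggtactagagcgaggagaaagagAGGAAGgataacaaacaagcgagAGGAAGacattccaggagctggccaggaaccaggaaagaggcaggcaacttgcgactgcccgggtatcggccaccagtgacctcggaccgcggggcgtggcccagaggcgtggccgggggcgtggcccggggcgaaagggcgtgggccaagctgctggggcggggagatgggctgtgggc
Sema3g: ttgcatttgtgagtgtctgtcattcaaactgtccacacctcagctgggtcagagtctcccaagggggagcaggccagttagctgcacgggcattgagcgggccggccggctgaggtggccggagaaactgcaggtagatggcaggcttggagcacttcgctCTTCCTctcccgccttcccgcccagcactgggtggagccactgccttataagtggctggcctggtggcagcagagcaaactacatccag
Sema3d: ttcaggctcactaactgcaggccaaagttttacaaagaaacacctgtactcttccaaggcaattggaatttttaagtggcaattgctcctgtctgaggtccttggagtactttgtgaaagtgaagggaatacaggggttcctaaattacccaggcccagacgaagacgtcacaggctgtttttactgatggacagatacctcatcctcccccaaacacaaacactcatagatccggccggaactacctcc
Sema5a: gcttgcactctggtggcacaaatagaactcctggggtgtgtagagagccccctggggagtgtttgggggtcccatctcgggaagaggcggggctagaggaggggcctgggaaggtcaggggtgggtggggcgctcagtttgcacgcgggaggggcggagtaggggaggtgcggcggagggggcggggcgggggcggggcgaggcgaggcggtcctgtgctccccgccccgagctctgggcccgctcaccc
The windows shown for the 3 genes higher in Cd31+ cells each held AGGAAG, and those shown for Sema3d and Sema5a did not. The Sema3d window ends before the GENCODE start of the gene, at 12383385. This contrast rests on which genes were shown. Among called members not shown, Sema3a, higher in Cd31- cells, held AGGAAG, and Plxna2 and Sema7a, higher in Cd31+ cells, did not. Over all members called between the gates, AGGAAG was in a window of 5 of the 7 genes higher in Cd31+ cells that had one in the RefSeq table and of 1 of the 8 higher in Cd31- cells, and CCGGAAG, another ETS string that shares GGAAG with it, in 0 of 7 and 1 of 8. Among all 32851 windows of this length AGGAAG was in 29.5% and CCGGAAG in 6.91%. The GC box GGGCGG was in 6 of 7 and 5 of 8 against 32.7% of all windows, and the E-box CACGTG in 0 of 7 and 0 of 8 against 6.02%. Both strands were searched, 37 of the 45 members had a window, some of them several, and a match describes letters only. A gene with several windows was counted if any of them matched, whereas the shares of all windows count each window singly. The gene counts and these shares are therefore unlike measures.

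The repertoire in the Cd31+ cells was dominated by 1 receptor. The 45 genes summed to between 1863 and 2509 CPM in the Cd31+ sums, of which Nrp1 made 46.6% to 63.6%. In the Cd31- sums they summed to between 1433 and 1695 CPM, and Nrp1 made 9.87% to 21.9%. Compared per kilobase of exon, Nrp1 came first in Cd31+ cells at 122 ± 31.2 CPM per kb (SD, n = 4 sums), followed by Ntn1 at 22.1 ± 0.764. Their 4 values did not overlap. Plxnd1 at 12.6 ± 2.65, Sema3f at 12.5 ± 1.44 and Plxna2 at 11.4 ± 1.16 CPM per kb came next and overlapped each other. In Cd31- cells Slit3 at 40.1 ± 13.2 and Sema3c at 36.7 ± 6.47 CPM per kb had the highest means, followed by Nrp1 at 22.8 ± 10.3, and the values of all 3 overlapped. Summed by family, neuropilins and plexins were higher in the Cd31+ gate, and secreted semaphorins and Slits in the Cd31- gate. Plexins summed to between 427 and 507 CPM in Cd31+ and 169.9 and 233 CPM in Cd31- sums. Secreted semaphorins summed to between 76.7 and 121 CPM in Cd31+ and 438 and 644 CPM in Cd31- sums, and Slits to between 5.91 and 13.5 CPM and 137 and 344 CPM. None of these ranges overlapped, whereas the summed membrane semaphorins did, at 182 to 223 CPM in Cd31+ and 151 to 219 CPM in Cd31- sums.

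**Figure D1:**
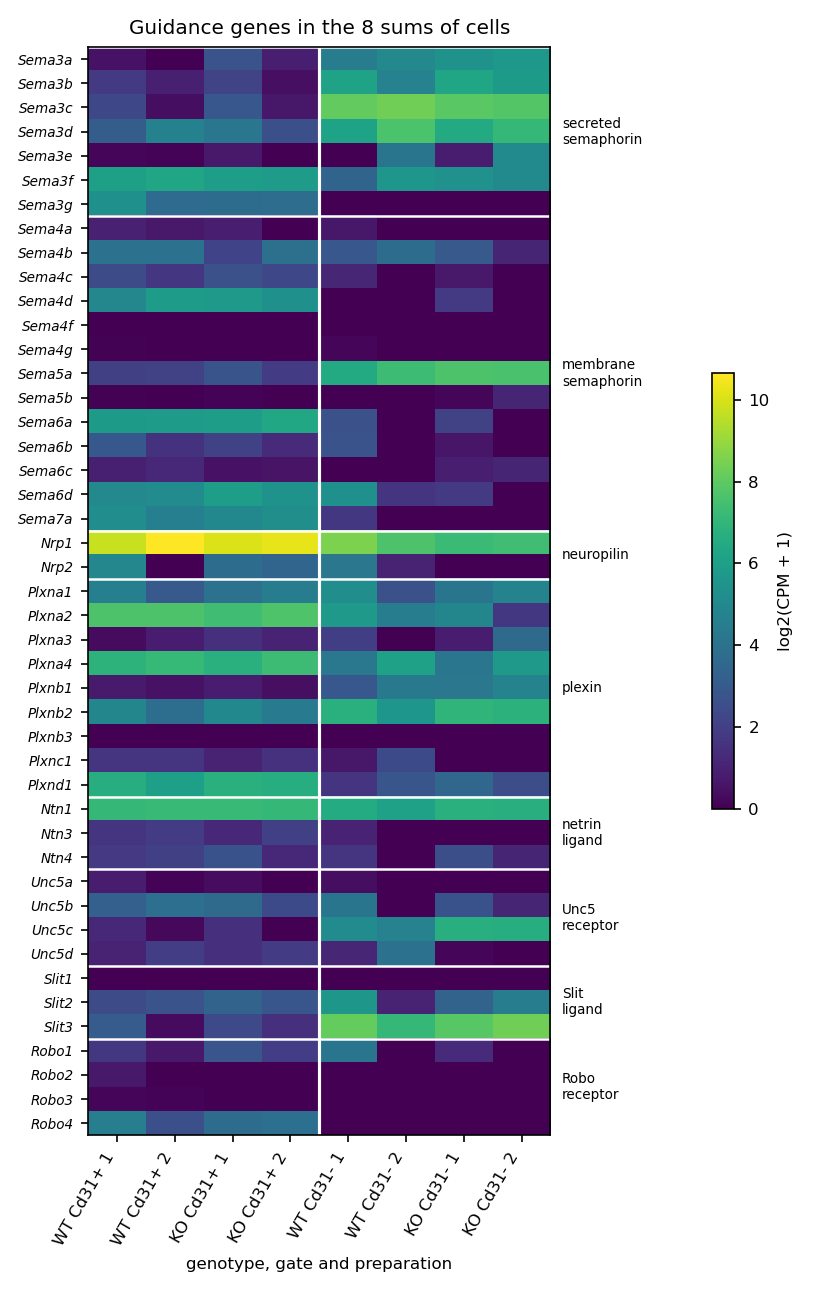
Levels of the 45 genes, as log2(CPM + 1) by colour, in the 4 Cd31+ sums (left of the white line) and the 4 Cd31- sums, with genes in rows grouped by role. Nrp1 is the brightest row on the left at 868 to 1595 CPM, and Sema3c and Slit3 are dark on the left and bright on the right.

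Between the gates, which asks which guidance genes mark the endothelial and which the other cells of the wall, 18 members changed and they divided evenly. Of the 33 members with enough counts to test, 9 were higher in Cd31+ cells and 9 in Cd31- cells (edgeR quasi-likelihood test, adjusted p under 0.05 over all genes). The call rate was 54.5% of these members, against 19.1% of the 11579 genes tested, 9.57% higher in Cd31+ and 9.55% higher in Cd31- cells. Members that passed the filter on low counts only through the gate in which they were high, such as Robo4 and Sema3g, are among the 33, so this share is not that of all 45. The median log2 difference, Cd31+ minus Cd31-, was 0.78 over the tested members and 0.04 over all genes tested. In all 18 the 4 values of one gate did not overlap those of the other. The genes were called from these same values, so this adds no support to the calls. Uncalled members such as Ntn1 and Sema3f did not overlap either, and the share of all genes without overlap was not counted. The Cd31- gate was mostly smooth muscle-like and fibroblast-like cells, so these differences are between cell types, and fewer cells of a type cannot be told apart from less RNA per cell within a sum.

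**Figure D2:**
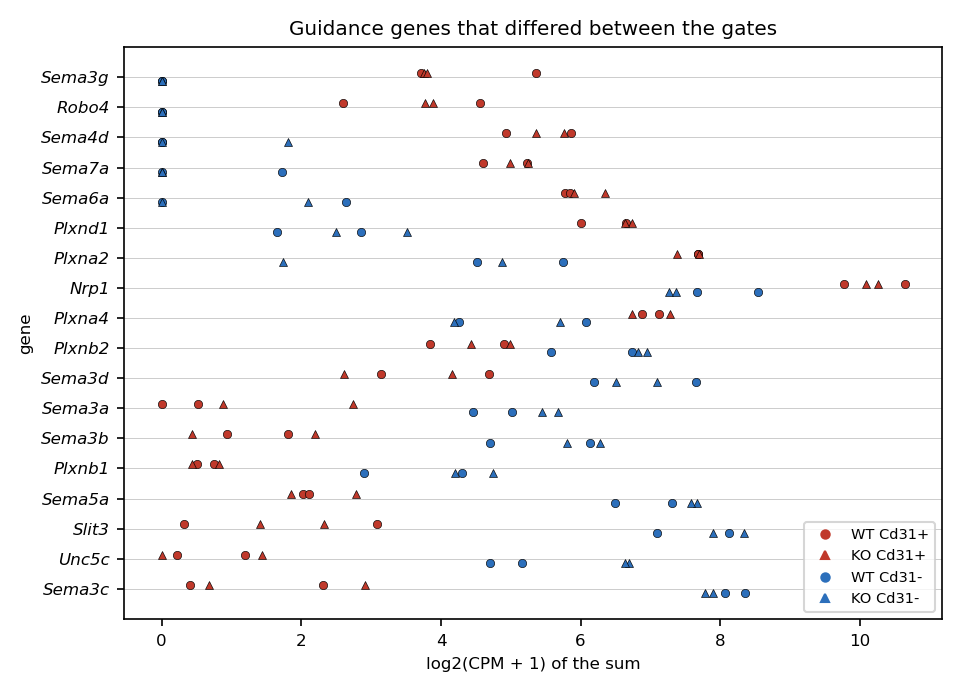
Each point is 1 sum of cells of the 18 genes that differed between the gates, on log2(CPM + 1), with red for Cd31+, blue for Cd31-, circles for WT and triangles for KO. Red and blue do not overlap in any row, and circles and triangles are mixed within a colour in most.

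Among the receptors, Nrp1 was at 868 and 1595 CPM in WT and 1089 and 1226 CPM in KO Cd31+ cells, and at 371 and 202 CPM in WT and 153 and 164 CPM in KO Cd31- cells. The lowest Cd31+ value was above the highest Cd31- value, and the log2 difference was 2.39 ± 0.34 (SE, edgeR adjusted p = 0.000677). Plxnd1, the plexin that binds Sema3e in vessels, was at 98.9 and 63.3 CPM in WT and 106 and 98.8 CPM in KO Cd31+ cells. In Cd31- cells it was at 2.16, 6.25, 10.4 and 4.66 CPM in the same order of sums. The difference was 3.90 ± 0.49 on the log2 scale (edgeR adjusted p = 0.000299), the largest of the 3 plexins that were higher in Cd31+ cells. Plxna2 was at 204, 204, 166 and 207 CPM in Cd31+ and 52.7, 21.9, 28.2 and 2.33 CPM in Cd31- cells, a log2 difference of 2.79 ± 0.57 (edgeR adjusted p = 0.00547). Plxna4 was at 117, 138, 106 and 155 CPM in Cd31+ and 18.2, 66.7, 17.2 and 51.3 CPM in Cd31- cells. Both class A plexins are signal-transducing partners of neuropilins, and both were higher in Cd31+ cells, Plxna4 by less, with a log2 difference of 1.78 ± 0.45 (edgeR adjusted p = 0.0172). Without KO Cd31+ preparation 2, Plxna4 was no longer called. The third class A plexin with sizeable counts, Plxna1, overlapped between the gates at 6.74 to 23.2 CPM and 5.21 to 36.5 CPM.

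The class B plexins, which signal for class 4 semaphorins, lay the other way. Plxnb2 was at 28.9, 13.4, 30.6 and 20.5 CPM in Cd31+ and 106, 46.9, 122 and 112 CPM in Cd31- cells, so that the log2 difference was -2.08 ± 0.38 (edgeR adjusted p = 0.00310). Plxnb1 was under 1 CPM in each Cd31+ sum, at 0.357 to 0.770, and at 6.49, 18.8, 17.4 and 25.7 CPM in Cd31- cells, a log2 difference of -4.90 ± 0.73 (edgeR adjusted p = 0.000934). With cells thinned to 20000 counts Plxnb1 had too few counts to be tested. Plxna3 and Plxnc1 stayed at or below 11.7 CPM and 4.17 CPM, and Plxnb3 had counts in 0.296% of Cd31+ cells and in no Cd31- cell. Nrp2, at 29.7, 0, 12.7 and 10.1 CPM in Cd31+ and 17.6, 1.04, 0 and 0 CPM in Cd31- cells, overlapped between the gates and is described by cluster further on.

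Among secreted semaphorins, 5 of the 6 with enough counts were called, 4 of them higher in Cd31- cells. Sema3c was at 3.96, 0.333, 6.51 and 0.595 CPM in Cd31+ and 267, 325, 238 and 219 CPM in Cd31- cells, the steepest difference among members higher in the Cd31- gate at -6.47 ± 0.82 on the log2 scale (edgeR adjusted p = 0.000325). Of its Cd31+ counts only 15.6% lay in endothelial-like cells, and the rest in the few other cells that passed the gate. Sema3d was at 7.85, 24.7, 16.9 and 5.12 CPM in Cd31+ and 71.7, 199, 89.6 and 136 CPM in Cd31- cells, and Sema3b at 2.50, 0.916, 3.59 and 0.357 CPM and 68.9, 25.0, 76.8 and 54.8 CPM. Their log2 differences were -3.20 ± 0.54 and -4.90 ± 0.69 (edgeR adjusted p = 0.00184 and 0.000642). Sema3a, the classic ligand of Nrp1 with class A plexins, was at 0.438, 0, 5.66 and 0.833 CPM in Cd31+ and 21, 31.3, 42.5 and 50.1 CPM in Cd31- cells. Its difference was -4.34 ± 1.12 on the log2 scale (edgeR adjusted p = 0.0186), and 75.4% of its Cd31+ counts came from a single cell. Sema3a was no longer called without WT Cd31+ preparation 1, without KO Cd31+ preparation 2 or with cells of at least 100000 counts only.

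Sema3g and Sema3f were on the endothelial side. Sema3g, which signals through neuropilin-2, was at 39.9 and 12.1 CPM in WT and 12.5 and 12.9 CPM in KO Cd31+ cells and had 0 counts in all 4 Cd31- sums. Against a floor of 3 counts over all Cd31- cells it was at least 116-fold higher in Cd31+ cells (edgeR adjusted p = 0.00167). Sema3f, another neuropilin-2 ligand, was at 65.9, 74.6, 61.8 and 56.9 CPM in Cd31+ and 9.73, 46.9, 40.4 and 32.7 CPM in Cd31- cells. The values did not overlap, but the log2 difference of 0.99 ± 0.43 did not pass the test (edgeR adjusted p = 0.154). Sema3e, the ligand of Plxnd1, was at or below 0.663 CPM in Cd31+ cells and at 0, 16.7, 0.761 and 32.7 CPM in Cd31- cells. Its Cd31- counts came from 5 cells, 4.63% of that gate, all of them smooth muscle-like by the clustering described below. It had too few counts for the edgeR test, and DESeq2 called it between the gates.

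Of the membrane semaphorins, Sema4d, Sema6a and Sema7a were higher in Cd31+ cells and Sema5a in Cd31- cells. Sema6a, a ligand of class A plexins, was at 54.0, 56.4, 58.9 and 80.5 CPM in Cd31+ and 5.25, 0, 3.26 and 0 CPM in Cd31- cells, a log2 difference of 4.39 ± 0.67 (edgeR adjusted p = 0.00108). Sema4d, the ligand of Plxnb1, was at 29.4, 56.9, 53.0 and 40.1 CPM in Cd31+ cells and at 0 in 3 Cd31- sums and 2.50 CPM in KO preparation 1. Sema7a, which is anchored by a lipid and binds integrins and Plxnc1, was at 36.5, 23.4, 30.7 and 36.9 CPM in Cd31+ cells and at 0 in 3 Cd31- sums and 2.32 CPM in WT preparation 1. In the Cd31- gate all Sema7a counts came from 1 cell and all Sema4d counts from 2 cells, which sets how far their log2 differences of 5.21 ± 1.04 and 5.44 ± 0.95 can be read (edgeR adjusted p = 0.00490 and 0.00228). Sema5a, a semaphorin with thrombospondin repeats, was at 3.09, 3.33, 5.88 and 2.62 CPM in Cd31+ and 89.3, 157, 202 and 190.1 CPM in Cd31- cells. It had the lowest adjusted p of all members, with a log2 difference of -5.43 ± 0.41 (edgeR adjusted p = 2.54e-05). Sema6d was at 30.9, 34.5, 60.5 and 43.1 CPM in Cd31+ and 39.9, 2.08, 2.50 and 0 CPM in Cd31- cells, and overlapped because of WT Cd31- preparation 1 (edgeR adjusted p = 0.264).

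Netrin-1 was the most even of the abundant members. Ntn1 was at 134, 143, 142 and 135 CPM in Cd31+ and 93.0, 67.7, 108 and 105 CPM in Cd31- cells. The log2 difference was 0.53 ± 0.23 (edgeR adjusted p = 0.146), and the values did not overlap. Of its repulsive receptors, Unc5c was at 1.29, 0.166, 1.72 and 0 CPM in Cd31+ and 34.6, 25.0, 102 and 98.0 CPM in Cd31- cells, a log2 difference of -6.19 ± 0.95 (edgeR adjusted p = 0.00108). Unc5b, the member of the family known from endothelial tip cells, was at 8.49, 13.8, 11.8 and 4.29 CPM in Cd31+ cells, inside the Cd31- range of 0 to 16.7 CPM. Unc5a and Unc5d stayed at or below 0.827 and 14.6 CPM.

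Slit3 and Robo4 were the called members among the Slit and Robo genes, Slit3 higher in Cd31- and Robo4 in Cd31+ cells. Slit3 was at 7.47, 0.250, 4.03 and 1.67 CPM in Cd31+ and 279, 135, 237 and 323 CPM in Cd31- cells, a log2 difference of -6.16 ± 0.81 (edgeR adjusted p = 0.000391). Robo4, an endothelial receptor of the family that binds Unc5b, was at 22.5, 5.08, 12.7 and 13.8 CPM in Cd31+ cells and had 0 counts in all Cd31- sums. Against the same floor of 3 counts it was at least 81.1-fold higher in Cd31+ cells (edgeR adjusted p = 0.00246). With cells thinned to 20000 counts Robo4 had too few counts to be tested. Robo1, the main Slit receptor, overlapped at 0.666 to 5.96 CPM and 0 to 16.4 CPM, and Slit2 at 4.33 to 9.44 CPM and 1.04 to 48.0 CPM. Robo2 and Robo3 each had counts in 0.296% of Cd31+ cells and in no Cd31- cell.

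Of 54 other pathway genes (co-receptors and effectors, a list chosen with earlier results known), 44 were tested between the gates and 15 were called, 7 higher in Cd31+ and 8 higher in Cd31- cells, or 34.1% against the 19.1% of all genes. Among the co-receptors, Neo1 (neogenin, a netrin receptor) was at 1.33 ± 1.38 CPM in Cd31+ and 98.8 ± 43.6 CPM in Cd31- cells (mean ± SD, n = 4 sums). L1cam, an adhesion molecule that partners neuropilin-1, was at 40.2 ± 6.17 and 0.0272 ± 0.0544 CPM, and Kdr, the VEGF receptor that pairs with it, at 14.2 ± 8.71 and 0 CPM. The effectors divided too. Rnd1, a GTPase that binds plexins, was higher in Cd31+ cells at 43.0 ± 8.69 against 3.83 ± 5.13 CPM, and its relative Rnd3 lower at 20.3 ± 4.48 against 174 ± 73.8 CPM. The kinase Fyn was higher in Cd31+ cells at 38.3 ± 20.4 against 5.94 ± 4.26 CPM, and the kinase Pak1 lower at 2.0 ± 1.23 against 11.6 ± 4.54 CPM. Dpysl3, of the family that transmits Sema3a signals, was lower at 15.2 ± 7.96 against 388 ± 77.9 CPM, and Enah and Srgap3, which act on actin downstream of Robo receptors, at 13.6 ± 5.04 against 252 ± 110.3 and 5.96 ± 3.14 against 35.8 ± 11.4 CPM. All of these passed the edgeR test, and Dcc had no count in any sum.

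Cells were then grouped by clustering without the members, so that no member placed a cell in a cluster. It gave 5 endothelial-like clusters with 660 Cd31+ cells, a smooth muscle-like cluster with 70 Cd31- cells and a fibroblast-like cluster with 37. The makeup of the Cd31- sums differed. Fibroblast-like cells were 26 of 42 in WT preparation 1, 1 of 12 in WT preparation 2, 9 of 40 in KO preparation 1 and 1 of 14 in KO preparation 2. Levels by class or cluster are given as CPM of plain totals, without TMM scaling, and are described without a test. A thinned share is the share of cells with a count after each was reduced to 20000 counts.

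Within the Cd31- gate, Sema3a, Plxnb1, Sema3f and Unc5c lay in smooth muscle-like cells. Unc5c had counts in 57.1% of the smooth muscle-like cells (exact 95% interval 44.7 to 68.9%) and 2.7% of the fibroblast-like cells (0.0684 to 14.2%), at median depths of 112506 and 144368 counts. Sema3a had counts in 50.0% (37.8 to 62.2%) and 2.7%, Sema3f in 54.3% (41.9 to 66.3%) and 2.7%, and Plxnb1 in 32.9% (22.1 to 45.1%) and 2.7%. In fibroblast-like cells each of these 4 genes was counted in 1 cell. Slit2 and Robo1 lay the other way, with counts in 7.14% and 1.43% of smooth muscle-like cells and 48.6% and 21.6% of fibroblast-like cells. Sema6d was in 1 of 70 smooth muscle-like and 10 of 37 fibroblast-like cells, and Nrp1 in 55.7% and 94.6%. Nrp1 was at 65.6 to 115 CPM in the 4 pools of smooth muscle-like cells and at 428 and 509 CPM in the 2 pools with at least 5 fibroblast-like cells. Sema3c, Sema3b and Slit3 were common to both classes, Slit3 in 88.6% of smooth muscle-like and 94.6% of fibroblast-like cells. Robo4 and Sema3g had 0 counts in 70 smooth muscle-like cells (exact 95% interval 0 to 5.13%) and in 37 fibroblast-like cells (0 to 9.49%). By the rule of 3 divided by the number of cells the limits were 4.29% and 8.11%. Both kinds of limit are on the share of cells with a count, not of cells that express the gene. The difference of WT Cd31- preparation 1 from the other Cd31- sums in Nrp1, Sema6d, Slit2 and Robo1 went with its 61.9% share of fibroblast-like cells, and the part of that share in it was not tested.

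**Figure D3:**
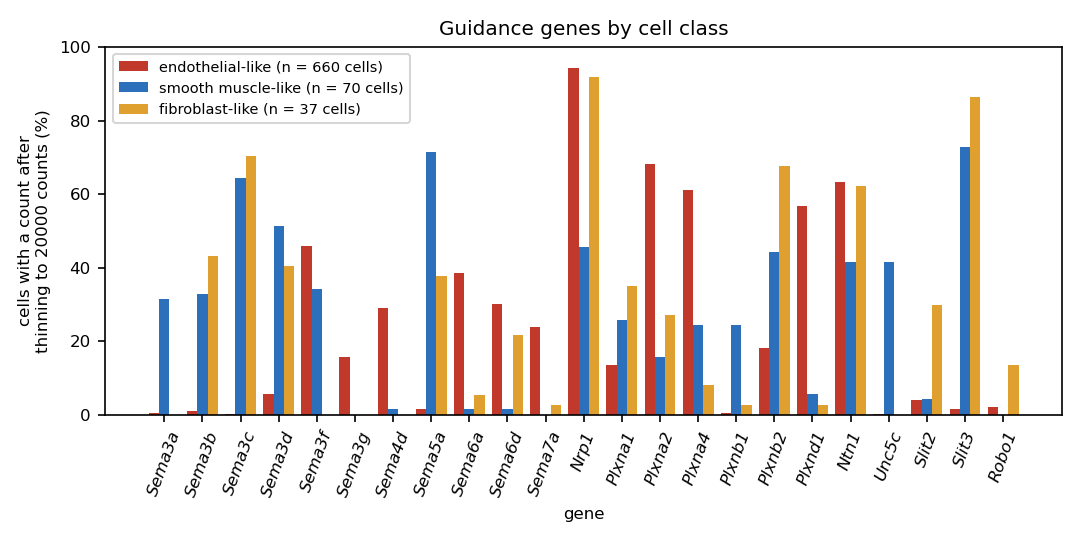
Bars give the share of cells with a count, in percent after thinning to 20000 counts, for the 23 members that reached 10% in a class: 660 endothelial-like Cd31+ cells (red), 70 smooth muscle-like (blue) and 37 fibroblast-like (yellow) Cd31- cells. Plxnd1, Sema4d and Sema7a are red almost alone, Sema3a, Plxnb1 and Unc5c blue almost alone, and Sema3c and Slit3 blue and yellow.

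Within the endothelium most members were spread over the clusters, and a few were not. Nrp1 had counts in 95.6% of the endothelial-like cells, Plxna2 in 80.5%, Plxnd1 in 78.6%, Plxna4 in 77.0%, Ntn1 in 74.7% and Sema3f in 70.2%. Nrp2, in contrast, was seen in 32 of 676 Cd31+ cells, and 31 of these were in the cluster led by Fabp4, which had only 33 cells and whose other leading genes were Lrg1, Aqp1, Cd36 and Plvap. That cluster held 99.8% of the endothelial-like Nrp2 counts. Nrp2 stood at 365 CPM in its 19 WT cells and 452 CPM in its 11 KO cells of preparation 1. A single cell held 24.3% of all Cd31+ Nrp2 counts, so these levels are not shared evenly by the cells. In the Calcrl, Gkn3 and Cd74 clusters Nrp2 had 0 counts in 243, 203 and 157 cells. WT preparation 2, in which Nrp2 was at 0 CPM, had no cell of the Fabp4 cluster. Of the 32 cells with Nrp2, 25 also had Nrp1 and 20 had Robo4.

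Robo4 marked the same cluster and a further small one. It was at 153 and 289 CPM in the WT and KO cells of the Fabp4 cluster and at 133 and 85.8 CPM in those of the cluster led by Slc6a6, all of preparation 1. In the other clusters it stayed at or below 13.7 CPM in every pool. The 2 small clusters were 5.0% and 3.64% of the endothelial-like cells and held 58.5% and 21.3% of the Robo4 counts. A single cell held 20.9% of all Cd31+ Robo4 counts. Robo4 was counted in 60.6% of Fabp4 cells (42.1 to 77.1%) and 54.2% of Slc6a6 cells (32.8 to 74.4%), against 2.88% of Calcrl cells (1.17 to 5.84%).

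Sema3g set the 2 small clusters apart. It was at 0 and 0.347 CPM in the WT and KO Fabp4 cells and at 182 and 63.6 CPM in the Slc6a6 cells. In the cluster led by Cd74, whose other leading genes were of MHC class II or induced by interferon (H2-Aa, H2-Ab1, Iigp1, Igtp) and 154 of whose 157 cells were from WT preparation 1, Sema3g was at 43.5 CPM. It was at 4.32 to 19.3 CPM in the 8 pools of the 2 large clusters. Sema6a was highest in both small clusters, at 117 to 253 CPM against 38.4 to 88.8 CPM elsewhere. Nrp1 was at 309.6 to 799.7 CPM in the small clusters and at 879.8 to 1929.6 CPM in every pool of the others, with the highest value in the Calcrl cells of WT preparation 2. Between the 2 large clusters Nrp1 leaned to Calcrl cells, at 1304 to 1929.6 CPM against 879.8 to 1272 CPM in Gkn3 cells. Sema7a leaned to Gkn3 cells, at 42.7 to 67.2 CPM against 9.62 to 25.8 CPM, and those values did not overlap in the 4 pools. Slit3 counts of the endothelial-like cells lay for 65.9% in the Slc6a6 and for 18.5% in the Fabp4 cluster, and Sema3b counts for 62.8% in the Slc6a6 cluster. These shares rest on 492 Slit3 counts in 18 cells and 333 Sema3b counts in 13 cells. Pericyte markers (Rgs5, Cspg4, Kcnj8, Abcc9) had a count in a mean of 9.38% of Slc6a6 cells, against 0.246% to 0.758% in the other endothelial-like clusters. The same mean was 69.9% in the smooth muscle-like and 44.9% in the fibroblast-like cluster, so these markers do not single out pericytes here. The part of cells with these markers in the Slit3 and Sema3b counts was not tested.

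**Figure D4:**
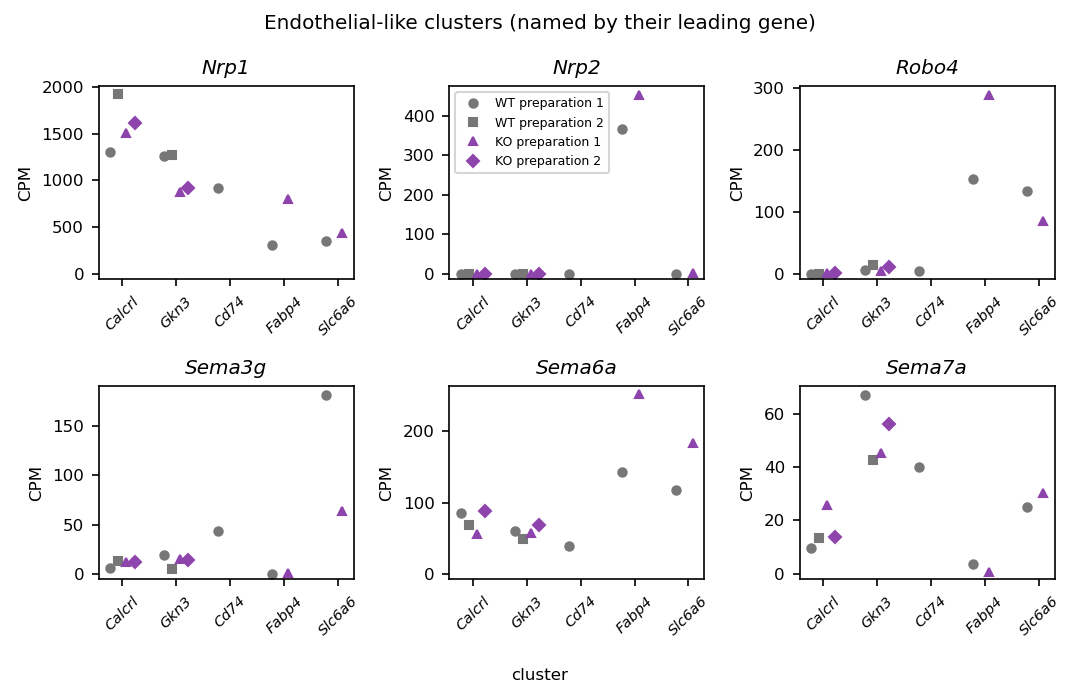
Level in CPM of 6 members in the 5 endothelial-like clusters, each named by its leading gene, with 1 point for each preparation and genotype that had at least 9 cells there (grey WT, purple KO). Nrp2 is above 0 almost only in the Fabp4 cluster, Robo4 in the Fabp4 and Slc6a6 clusters, and Sema3g is highest in the Slc6a6 cells of WT preparation 1 at 182 CPM.

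The genotype comparison in Cd31+ cells, which asks whether these genes moved where Amotl2 was deleted, gave no call among the members. Of 36 members tested none passed (edgeR, 12702 genes tested, 0% called), and none had an unadjusted p under 0.05 where 3.68% of all genes did. The recombination reporter EYFP was not called either, at 6.00 ± 0.64 on the log2 scale (edgeR adjusted p = 0.0596). Nor was Amotl2 itself, at -0.66 ± 0.32 (edgeR unadjusted p = 0.0675). A missing call in this test therefore does not show that a gene was unchanged. DESeq2 called 55 genes and 0 members. The median log2 difference, KO minus WT, was 0.08 over the members and 0.00 over all genes. For Nrp1 the log2 difference was -0.11 ± 0.33, and by preparation it lay at 0.33 in preparation 1 and -0.38 in preparation 2 on the log2(CPM + 1) scale. Of the 17 members at a mean of at least 10 CPM, 6 had the same sign in both preparations, and no member at 5 CPM or more differed by at least 1 in the same direction in both. Neither count was made over all genes, so they cannot be read as particular to the members. Sema6d was at 30.9 and 34.5 CPM in WT and 60.5 and 43.1 CPM in KO cells, higher in KO in both preparations, with a log2 difference of 0.65 ± 0.32 (edgeR adjusted p = 1.000, unadjusted p = 0.0698).

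Sema3g and Nrp2 turned on single sums. Sema3g differed by -1.03 ± 0.56 on the log2 scale (edgeR adjusted p = 1.000), with 39.9 CPM in WT preparation 1 and 12.1 to 12.9 CPM in the other 3 Cd31+ sums. Without WT preparation 2 it was called, at -1.62 (edgeR adjusted p = 0.0419). Without WT preparation 1 the difference was 0.02. With only the Calcrl and Gkn3 clusters, which every sum held, it was 0.08. That setting left out the Cd74, Slc6a6 and Fabp4 clusters together, and the part of each was not tested. WT preparation 1 held 154 of the 157 cells of the Cd74 cluster, in which Sema3g was at 43.5 CPM. It also held 13 of the 24 cells of the Slc6a6 cluster, in which Sema3g was higher still. Nrp2 was called only without WT preparation 1, where the remaining WT sum had 0 counts and no Fabp4 cell, and no fold is given for it. Sema3a differed by 3.73 ± 1.69 on the log2 scale (edgeR adjusted p = 1.000), and a single KO cell held 75.4% of its Cd31+ counts. The Fabp4 cluster held 96.8% of the endothelial-like Sema3a counts.

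**Figure D5:**
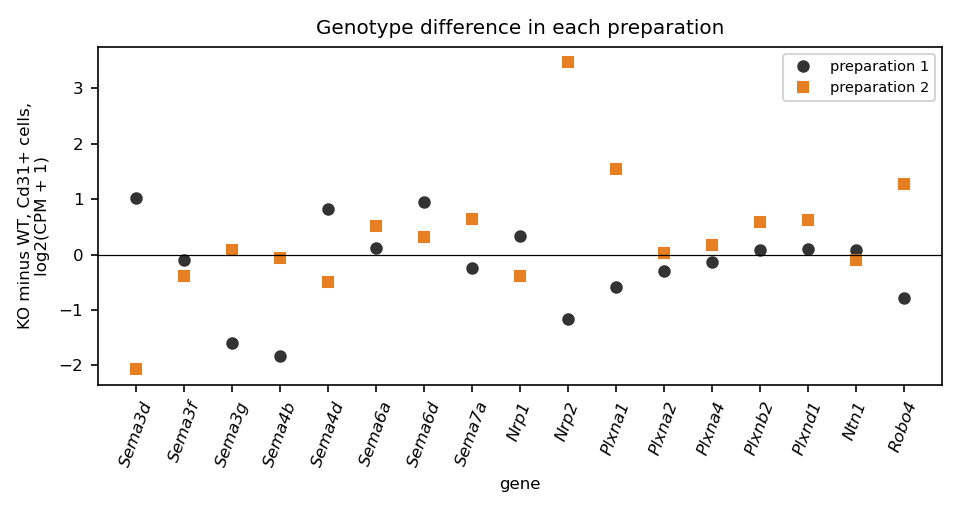
KO minus WT difference in Cd31+ cells on the log2(CPM + 1) scale for the 17 members at a mean of at least 10 CPM, with preparation 1 as dark circles and preparation 2 as orange squares. The 2 preparations lie on opposite sides of 0 for most members, and Nrp2 reaches 3.47 in preparation 2, where the WT sum was at 0.

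In the Cd31- gate, which serves as the control for the endothelial deletion, 22 members were tested and none passed (edgeR, 10544 genes tested, 0% called). With DESeq2 6 genes and 0 members passed. At an unadjusted p under 0.05 it was 1 member, Unc5c, and 2.61% of all genes. Unc5c was at 34.6 and 25.0 CPM in WT and 102 and 98.0 CPM in KO cells, a log2 difference of 1.71 ± 0.59 (edgeR adjusted p = 1.000), and the values did not overlap. In smooth muscle-like cells alone Unc5c was at 90.4 and 26.6 CPM in WT and 129 and 103 CPM in KO pools, and the part of the gate's makeup in its difference was not tested. Nrp1, at 371 and 202 CPM in WT and 153 and 164 CPM in KO cells, had a log2 difference of -0.88 ± 0.52 (edgeR adjusted p = 1.000). Fibroblast-like cells, in which Nrp1 was higher, were 61.9% and 8.33% of the WT and 22.5% and 7.14% of the KO sums, and their part in it was not tested.

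The difference of the genotype effect between the gates was also tested directly, and 0 of 35 members passed (edgeR, 12729 genes tested, 0% called; DESeq2 49 genes and 0 members). At an unadjusted p under 0.05 these were 4 members, Sema4d, Sema6d, Sema7a and Unc5d, and 5.16% of all genes. All 4 genes had at least 1 Cd31- sum at 0 counts, and Sema6d was called only when genes with low counts were not filtered, at a log2 value of 4.28 (edgeR adjusted p = 0.0191).

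Between the preparations of Cd31+ cells, a batch comparison in which plate and preparation cannot be told apart, 0 of 36 members passed, against 4 of 12702 genes or 0.0315% (edgeR, genotype in the model), and DESeq2 called 96 genes and 0 members. At an unadjusted p under 0.05 these were Nrp1 and Sema3c, against 7.09% of all genes. Nrp1 was higher in preparation 2 by 0.60 ± 0.23 and Sema3c lower, at -3.42 ± 1.23 on the log2 scale (edgeR adjusted p = 0.656 and 0.643). Most Cd31+ counts of Sema3c were in cells that were not endothelial-like.

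For Plxnd1 the genes with the most similar levels over the 8 sums were Elk3, an ETS factor, at a Pearson r of 0.990, then Tmem176a, Slc7a1, Ipo11 and Pnkd, at 0.987 to 0.982. These 8 points share 2 gates, so any gene that differs strongly between the gates is similar, and no p is given. Robo4, Unc5b and Sema3g were below the minimum of 10 CPM over the 8 sums at which genes were compared.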

How the data were processed

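The deposited values were whole-number counts per gene and well, not normalized. The authors aligned reads with STAR 2.7.7a to GRCm38 with ERCC and EYFP sequences, removed duplicates with Picard 2.22.0 and counted them with HTSeq 0.9.1. The annotation release and strand setting are not given in the sources used here, so overlapping genes (a microRNA or antisense RNA for Nrp1, Ntn1, Plxna4, Plxnb2, Slit2, Slit3 and others) are uncertain to that degree. Lines of spike-ins (1.25% of counts) and HTSeq summaries (46.9%) were left out.

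Wells with at least 20000 counts and 500 genes were kept, 784 of 1024. Sums were tested with edgeR 4.0.16 (TMM, filterByExpr, quasi-likelihood, Benjamini-Hochberg), with DESeq2 1.42.0 beside it, and the tests were checked on simulated counts. Clusters came from Seurat 5.3.0 (2000 variable genes less the 12 members among them, 30 dimensions, resolution 0.5). Exon lengths came from GENCODE M21. Alternatives were a replicate block, RLE factors, no filter, each sum left out, cells of at least 100000 counts, thinned cells and cells chosen by cluster.

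Cd31+ and Cd31- sums of the same number and genotype carried the same sort label. Their deviations from the gate means correlated by 0.0219 to 0.0868, and those of KO and WT Cd31+ sums of the same preparation by 0.14. The members and lists were chosen with earlier results of these data known. Values in every sum were given for members called in a comparison and the 12 highest in Cd31+ cells. Other members were named after their values were seen. Doublets were not called. Cells were sorted singly into wells, which does not exclude wells that received joined cells.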

Additional observations from a re-analysis of the deposited data

Results flagged for a closer look

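In 6 of 40 groups of 4 sums examined, 1 sum stood apart from the other 3. The rule was a gap over the whole range beyond Dixon's 95% critical value. Chance gives this in about 1 of 20 groups drawn from a single normal population. These groups mix WT and KO sums, and where 3 sums are at 0 any count in the other is flagged. The number flagged therefore cannot be read against that rate. In Cd31+ cells these were Plxna2 at 166 CPM in KO preparation 1 (204 to 207 in the others), Sema3a at 5.66 CPM in KO preparation 1 (0 to 0.833) and Sema3g at 39.9 CPM in WT preparation 1 (12.1 to 12.9). In Cd31- cells these were Sema4d at 2.50 CPM in KO preparation 1 and Sema7a at 2.32 CPM in WT preparation 1, both at 0 in the others, and Sema6d at 39.9 CPM in WT preparation 1 (0 to 2.50). The Sema3a value lay mostly in 1 cell and the Sema7a value in 1 cell. The Sema3g sum had the largest shares of Cd74 and Slc6a6 cells, and the Sema6d sum that of fibroblast-like cells. The part of these shares in the values was not tested.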

How the results depend on the processing

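Between the gates, 16 to 22 members were called over the alternatives, and all 18 were kept under the replicate block, which changed no member's call in any comparison. Leaving out 1 sum gave 16 to 20, and the lost calls were Plxna4 and Sema3a. Thinned cells gave 16, as Plxnb1 and Robo4 had too few counts to be tested. Between KO and WT Cd31+ cells, leaving out 1 sum gave 0 to 1 members, namely Nrp2 without WT preparation 1 and Sema3g without WT preparation 2. Leaving out 1 sum moved the Sema3g log2 difference between -1.62 and 0.02, the latter without WT preparation 1, and it turned to 0.08 with the Calcrl and Gkn3 clusters only, the latter chosen after seeing the data, as were the sums without the Fabp4 cluster and with smooth muscle-like cells only. In the test of the genotype effect between gates, no filter on low counts gave 1 member, Sema6d, and leaving out 1 sum moved Sema4d between -8.90 and 0.08, the latter without KO Cd31- preparation 1. The cause was not tested. Over all genes, the 0 calls between KO and WT Cd31+ cells became up to 311 (without WT preparation 1), 104 with no filter and 55 with DESeq2. The 0 in Cd31- cells became up to 79 (without WT preparation 2), the 0 of the genotype effect between gates up to 163 (no filter), and the 4 between preparations 0 to 96 (DESeq2 the highest). Leaving out a sum could not be fitted for the preparations, since no residual degrees of freedom were left. A member's share of cells moved with depth. Of the 45, 17 had a count in at least 10% of Cd31+ cells and 13 after thinning. The Nrp2 cluster held 33 cells and 99.8% of its endothelial-like counts at resolution 0.8 and with members among the variable genes. The Cd31- sums of preparation 2, with 12 and 14 cells, limit what can be seen in that gate.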
